A study of Mus musculus with 20 samples.

Results

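The squamous and stress keratins are 7 keratin genes, Krt5, Krt14, Krt6a, Krt6b, Krt17, Krt13 and Krt7, which were followed by name among the 50600 gene names of each deposited table. They were chosen on measured values: their levels in tumor against naive libraries of each cell type, and their ratio of tumor eosinophils to tumor macrophages. Those differences are therefore described here without a test, and only comparisons that the choice did not use directly were tested. The other 47 names of the keratin family served for comparison.

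RNA was measured by CEL-Seq, which barcodes and counts the 3′ ends of polyadenylated transcripts, in sorted cells of C57BL/6 mice. The 20 libraries comprised 7 of eosinophils from colonic tumors that followed an induction labelled CAC, 2 of eosinophils from the colons of naive mice, 6 of macrophages from such tumors and 5 of macrophages from naive colons. The labels call the mice WT, name no agent, age or sorting marker, and do not say whether libraries came from separate animals, so p-values measure only the spread between these libraries. According to the labels, primer pools differed among the 3 technical replicates made of each sample. Eosinophils are granulocytes and macrophages are phagocytes, and neither cell type is a known site of these keratins.

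Keratins are the intermediate filament proteins of epithelial cells. A filament is built from pairs of an acidic type I and a basic type II keratin. Krt5 (type II) and Krt14 (type I) form the pair of basal cells in stratified squamous epithelium. Krt6a and Krt6b (type II) and Krt17 (type I) are induced in wounded or hyperproliferative epithelium, which is why they are called stress keratins. Krt13 (type I) pairs with Krt4 in the upper layers of moist squamous mucosa such as the oesophagus, and Krt7 (type II) belongs to glandular, ductal and urothelial cells. The absorptive and goblet cells of the normal colon mainly carry the simple keratins Krt8, Krt18, Krt19 and Krt20.

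The genes lie in the 2 keratin clusters of the mouse genome (GRCm38, GENCODE M21). Krt5 (chr15:101707070-101712898, minus strand), Krt6a (chr15:101689910-101694307, minus strand), Krt6b (chr15:101676023-101680287, minus strand) and Krt7 (chr15:101411043-101430313, plus strand) are type II genes. Krt13 (chr11:100117327-100121566), Krt14 (chr11:100203162-100207548) and Krt17 (chr11:100256217-100261029), each on the minus strand, are type I genes. Promoter sequences from RefSeq (GRCm38.p6) matched 4 of the 7 genes, Krt5, Krt7, Krt13 and Krt14. The 250 bases before the start are printed for Krt5, Krt13 and Krt7, to set the starts of a basal, a mucosal and a glandular keratin side by side. Capitals mark the motifs found on either strand.
Krt5, chr15:101712906-101713155, minus strand: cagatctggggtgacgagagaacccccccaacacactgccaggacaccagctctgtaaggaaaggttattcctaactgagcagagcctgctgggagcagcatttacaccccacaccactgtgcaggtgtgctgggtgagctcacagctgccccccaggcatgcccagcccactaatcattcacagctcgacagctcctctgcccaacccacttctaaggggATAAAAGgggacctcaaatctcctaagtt
Krt13, chr11:100121567-100121816, minus strand: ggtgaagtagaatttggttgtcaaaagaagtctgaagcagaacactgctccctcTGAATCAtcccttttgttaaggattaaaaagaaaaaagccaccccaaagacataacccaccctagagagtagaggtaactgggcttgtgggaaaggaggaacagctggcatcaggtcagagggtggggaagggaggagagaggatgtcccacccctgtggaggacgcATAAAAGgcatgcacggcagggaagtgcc
Krt7, chr15:101412153-101412402, plus strand: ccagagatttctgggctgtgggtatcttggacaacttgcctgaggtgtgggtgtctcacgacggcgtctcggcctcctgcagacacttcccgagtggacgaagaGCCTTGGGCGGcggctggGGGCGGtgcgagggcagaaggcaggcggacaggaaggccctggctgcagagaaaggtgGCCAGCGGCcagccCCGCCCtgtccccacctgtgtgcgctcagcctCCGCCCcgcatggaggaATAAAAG
Motifs were searched on both strands. The core promoter elements were TATAAA, the classical element upstream of regulated genes, and ATAAAAG, a variant of it. The binding motifs were TGANTCA for AP-1, GCCNNNGGC for AP-2, and GGGCGG for the Sp family, known as the GC box. The remaining motif was CCAAT. The variant ATAAAAG was added after the sequences had been read. It began at position −29 from the start in both Krt5 and Krt13, and at −7 in Krt7. It was present in 4.83% of all 32851 RefSeq promoters in this window. Krt13 held TGANTCA at −196, a motif found in 6.75% of promoters. Krt7 held 4 GC boxes (32.7% of promoters have at least 1) and 2 matches to GCCNNNGGC (13.7%), the upstream one overlapping a GC box. The first element (12.4%) and the last motif, CCAAT (33.8%), were in none of the 3 windows printed. Krt14, whose listed start lies 1518 bases inside its annotated gene, held none of the motifs, and a second Krt13 start, 989 bases inside, held AP-1 at −183 and −34 and a CCAAT box but no ATAAAAG. The RefSeq start of Krt7 lies 1360 bases inside the annotated gene.

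The libraries held 1978466 to 8520874 recovered reads in tumor eosinophils, 4452513 and 7469714 in naive eosinophils, 2289383 to 7636153 in tumor macrophages and 1477255 to 7945096 in naive macrophages. CPM below is each gene's reads relative to the library total after joint TMM scaling of the 20 libraries. A list of 10 eosinophil markers summed to 924 to 11073 CPM in tumor eosinophils and a mean of 2782 CPM in naive eosinophils, against means of 21.0 CPM in tumor and 41.7 CPM in naive macrophages. The granule protein gene Prg2 alone averaged 1944 of the mean 3083 CPM in tumor eosinophils. Beside the keratin differences, limma called 3 of the 10 eosinophil markers lower in tumor eosinophils, where 2.21% of all genes were called lower: Siglecf (fell by 1.89 ± 0.42 on the log2 scale, limma adjusted p = 0.0249), Il5ra (fell by 1.82 ± 0.42, limma adjusted p = 0.0300) and Ccr3 (fell by 1.52 ± 0.36, limma adjusted p = 0.0307). None of the 10 eosinophil markers was called higher. Mean CPM was higher in tumor than in naive eosinophils for Prg2 (1944 against 278), Ear6 (187 against 24.8) and Epx (50.9 against 1.43). The same held for Ear1 (34.5 against 1.41) and Ear2 (9.97 against 0.156, from 1 read). Mean CPM was lower for Cebpe (10.9 against 26.0) and Alox15 (383 against 992). A list of 10 macrophage markers summed to a mean of 779 CPM in tumor and 1017 CPM in naive eosinophils, against 10279 CPM in tumor and 10842 CPM in naive macrophages. Of its 8 genes tested in eosinophils, Adgre1 was lower in tumor libraries (fell by 2.202 ± 0.40 on the log2 scale, limma adjusted p = 0.00963), while C1qb (2.1004 ± 0.43, limma adjusted p = 0.0176) and C1qc (1.94 ± 0.42, limma adjusted p = 0.0217) were higher. These 6 marker calls were lost without naive eosinophil library 2, and their part in the keratin values was not tested. Tumor eosinophil libraries 2 and 3 had 34.9% and 35.2% mitochondrial reads and stood apart in that respect. Without them the median keratin difference between tumor and naive eosinophils was 3.63 on the log2 scale, against 3.66 with all libraries. Also without them, limma called 2 of the 10 eosinophil markers higher and 3 lower in tumor eosinophils.

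All 7 keratins had higher mean levels in tumor than in naive libraries of both cell types, which is what they were chosen for. On the log2 scale the differences between tumor and naive eosinophils ran from 1.99 for Krt7 to 4.30 for Krt6a. Between tumor and naive macrophages they ran from 2.32 for Krt7 to 5.40 for Krt5. The median of the 7 was 3.66 in eosinophils and 5.10 in macrophages, where the medians over all genes tested were 0.01 and 0.02. Values below are normalised reads, that is, reads divided by the library's size factor, and differences are on the log2(normalised reads + 1) scale with their SE. In bulk libraries, fewer cells that carry a transcript and less of it per cell cannot be told apart.

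**Figure D1:**
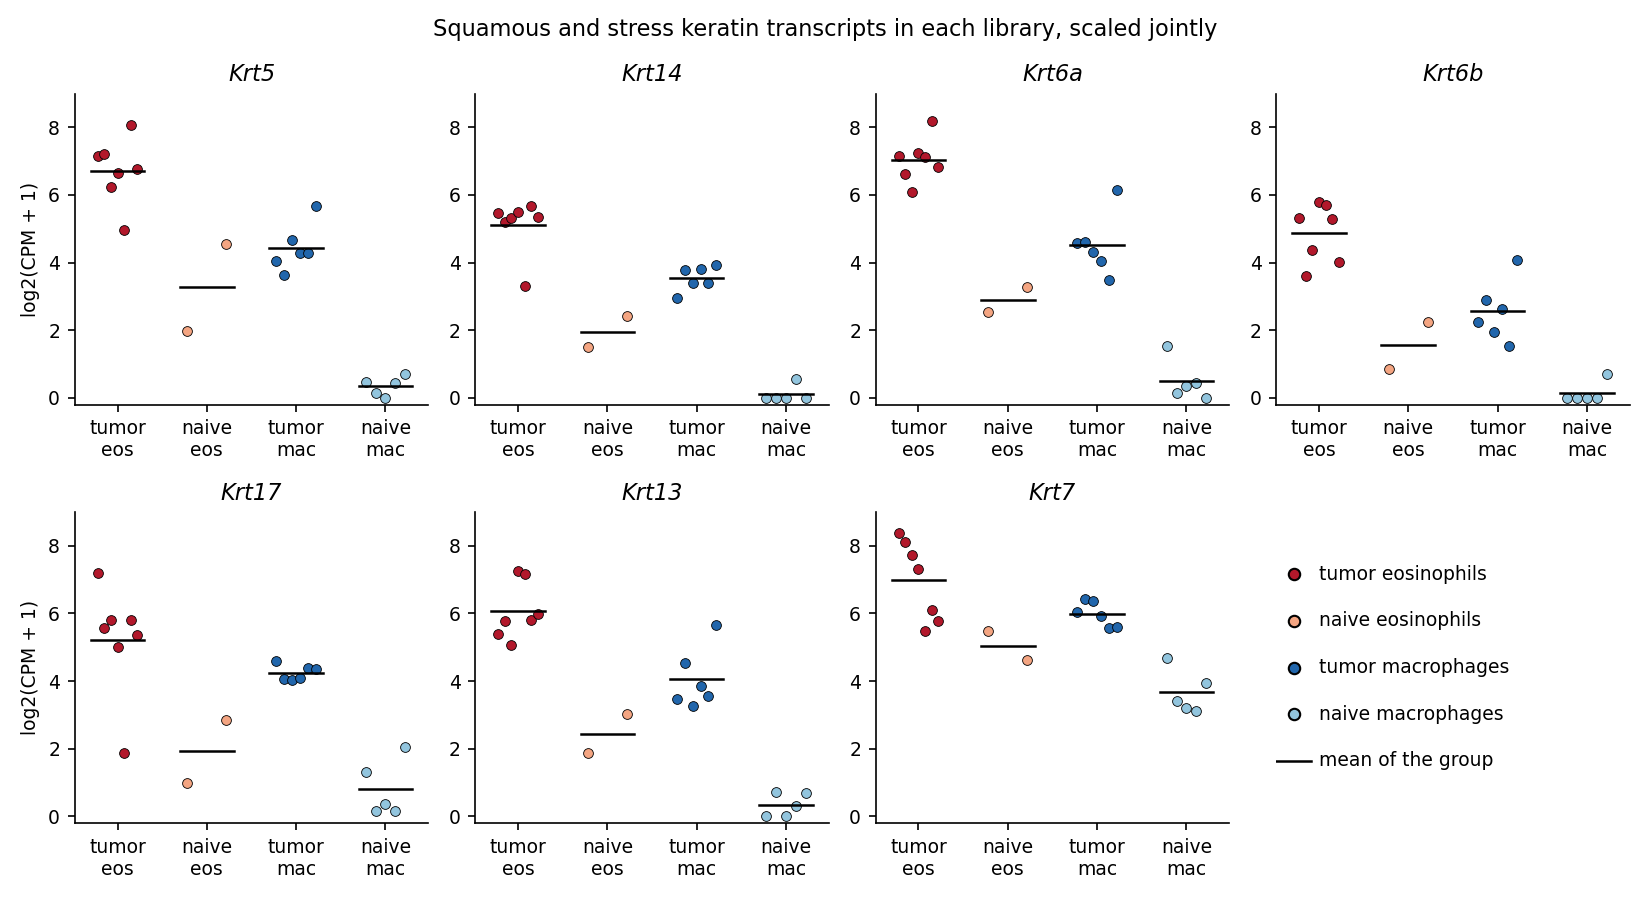
Level of each squamous and stress keratin in every library, as log2(CPM + 1) after joint scaling of the 20 libraries (points, in library order) with the mean of each group (lines). Tumor eosinophils had the highest group mean and naive macrophages the lowest for all 7 genes, and library 5 is the low point of tumor eosinophils for Krt14 and Krt17.

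Krt5 and Krt14, the basal pair, did not overlap between tumor and naive libraries in either cell type. Krt5 had 109 to 1131 normalised reads in tumor eosinophils, with a median of 423, against 10.4 and 86.9 in naive eosinophils. The difference was 3.63 ± 0.77, and the lowest tumor library (library 5) lay above the higher naive one. In macrophages, Krt5 had 49.1 to 210 normalised reads in tumor libraries, with a median of 79.0, against 1.78, 0.47, 0, 1.57 and 3.04 in naive libraries, a difference of 5.40 ± 0.41. Krt14, its type I partner, had 32.1 to 215 normalised reads in tumor eosinophils, with a median of 151, against 6.38 and 16.9 in naive eosinophils. Library 5 was the low value, the other 6 tumor libraries lay between 133 and 215, and the difference was 3.47 ± 0.60. In macrophages Krt14 was tightly grouped, at 31.5 to 60.6 normalised reads in tumor libraries with a median of 47.7. Only 1 of the 5 naive macrophage libraries had any Krt14 read (2.09 normalised reads in library 4), and the difference was 5.23 ± 0.40.

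The stress keratins followed the same order of groups. Krt6a had 258 to 1239 normalised reads in tumor eosinophils, with a median of 487, against 16.8 and 33.8 in naive eosinophils. Its difference of 4.30 ± 0.48 was the largest of the 7 in eosinophils, and library 6 was the high value. In macrophages Krt6a had 43.3 to 295 normalised reads in tumor libraries, with a median of 90.4, against 8.92, 0.47, 1.29, 1.57 and 0 in naive libraries, a difference of 5.30 ± 0.55. Krt6b had 40.6 to 201 normalised reads in tumor eosinophils, with a median of 136, against 2.90 and 14.5 in naive eosinophils, a difference of 3.78 ± 0.65. In macrophages it was scarce, at 8.16 to 67.9 normalised reads in tumor libraries with a median of 19.7, and the difference was 4.03 ± 0.59. A single read in naive macrophage library 5 was all the Krt6b found in naive macrophages.

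Krt17, the type I stress keratin, varied most between tumor eosinophil libraries. It had 9.48 to 504 normalised reads there, with a median of 170, against 3.48 and 24.2 in naive eosinophils. Library 5, at 9.48, lay between the naive values, so the groups overlapped, and the difference was 3.66 ± 1.08. In tumor macrophages Krt17 was among the steadiest, at 65.4 to 107 normalised reads with a median of 75.6. The naive macrophage libraries had 7.13, 0.47, 1.29, 0.52 and 15.2, and the difference was 4.42 ± 0.54.

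Krt13, the mucosal squamous keratin, had 123 to 554 normalised reads in tumor eosinophils, with a median of 234, against 9.28 and 27.8 in naive eosinophils, a difference of 3.85 ± 0.58. The highest values were in libraries 4 and 5, the second of which had the lowest Krt17. In macrophages Krt13 had 36.7 to 210 normalised reads in tumor libraries, with a median of 52.3, against 0, 2.82, 0, 1.05 and 3.04 in naive libraries, a difference of 5.10 ± 0.51. Krt7, the glandular keratin, was the only one of the 7 with more than 20 reads in every naive library. It had 156 to 1159 normalised reads in tumor eosinophils, with a median of 584, against 154 and 90.6 in naive eosinophils, a difference of 1.99 ± 0.69. The lowest tumor library and the higher naive library almost met. In macrophages Krt7 had 198 to 368 normalised reads in tumor libraries, with a median of 278, against 116, 41.9, 38.6, 33.5 and 69.8 in naive libraries, a difference of 2.32 ± 0.29.

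Tumor and naive values did not overlap for 6 of the 7 keratins in eosinophils, where 7.32% of all genes tested were separated in that direction. Krt17 was the exception, and was separated too when tumor library 5 was left out. In macrophages the groups did not overlap for any of the 7, against 5.19% of all genes. These counts follow from the choice of the genes and are no separate evidence. The tumor difference was smaller in eosinophils than in macrophages for each of the 7, by 0.38 ± 0.91 (Krt6b) to 1.91 ± 0.86 (Krt5), after joint scaling, where 1.87% of all genes were called with the larger and 2.29% with the smaller tumor effect in eosinophils. The folds in macrophages rest on few naive reads, from 1 (Krt6b) to 12 (Krt17) over the 5 libraries for the 6 keratins other than Krt7, which had 271. Pooled over libraries, the ratio of tumor to naive macrophages was 104 for Krt5 (exact 95% interval from 47.6 to 284), 161 for Krt6b (28.7 to 6402) and 6.01 for Krt7 (5.31 to 6.84). The intervals cover counting error only, and reads are not known to be independent molecules.

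The ratio of tumor eosinophils to tumor macrophages, after all 20 libraries had been scaled together, was above 1 for each of the 7 keratins. It was 5.41 for Krt6b, 5.37 for Krt5, 5.32 for Krt6a, 4.02 for Krt13, 3.40 for Krt14, 2.94 for Krt17 and 2.55 for Krt7. The 3 highest ratios belonged to type II genes of squamous epithelium and the lowest to Krt7, also type II. The range in tumor eosinophils overlapped that in tumor macrophages for all 7 genes, where 8.02% of all genes were separated in that direction and 43.1% were called in either direction. The overlap turned on single libraries. Without tumor macrophage library 6, which had the highest Krt5, Krt6a, Krt6b and Krt13 of its group, those 4 genes no longer overlapped. Without tumor eosinophil library 5, Krt5, Krt14 and Krt17 no longer did, and without tumor eosinophil library 3, Krt6a no longer did. The simple keratins had a median ratio of 2.71 over 5 genes, from 0.991 for Krt18 to 3.88 for Krt20. The 20 pan-epithelial genes had a median of 1.64, with a range of 0.197 to 4.40. With DESeq2 size factors in place of TMM scaling the medians were 4.32 for the 7 keratins, 2.89 for the simple keratins and 1.75 for the pan-epithelial genes.

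**Figure D2:**
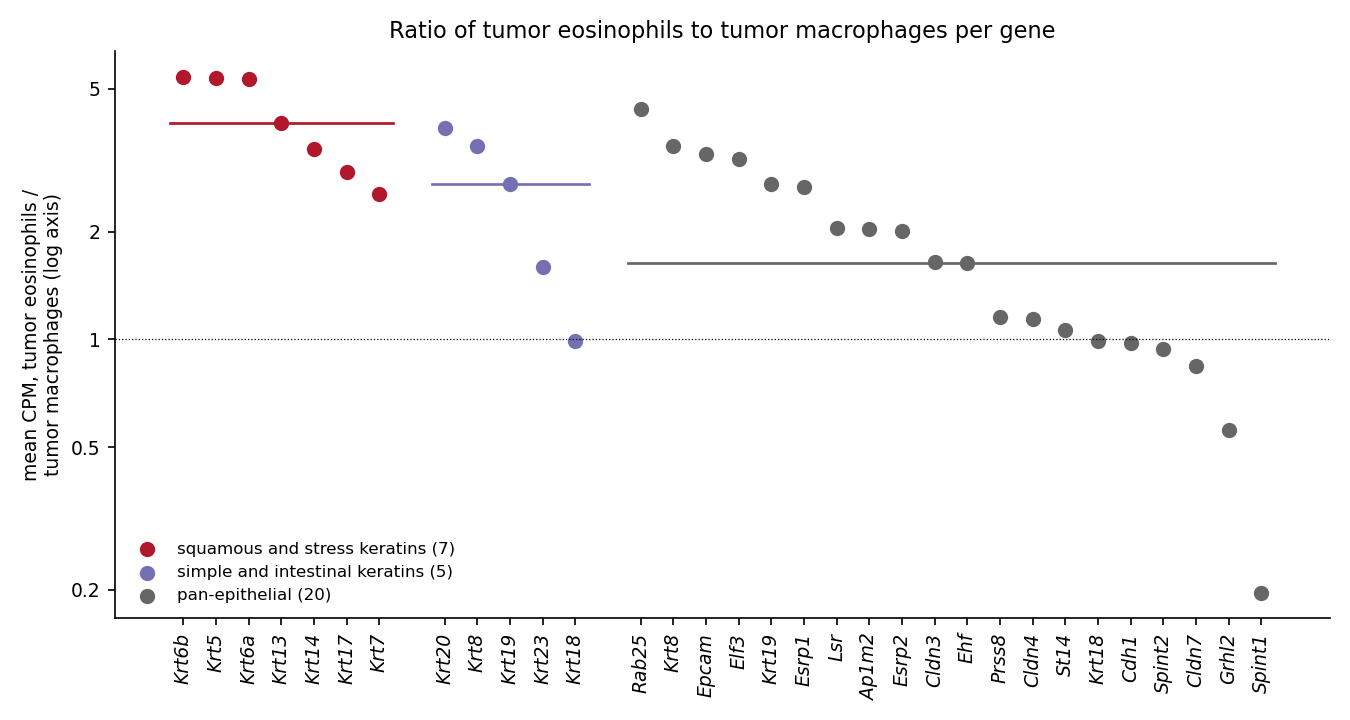
Ratio of mean CPM in tumor eosinophils to that in tumor macrophages for each gene (log axis), with the median of each list (lines); Krt8, Krt18 and Krt19 are in both comparison lists. The 7 squamous and stress keratins lie between 2.55 and 5.41, while the pan-epithelial genes spread from 0.197 to 4.40.

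The order of mean CPM was the same for each of the 7 genes: tumor eosinophils, tumor macrophages, naive eosinophils, naive macrophages. Neighbours in that order often overlapped. Tumor eosinophils and tumor macrophages did so for all 7 genes, tumor macrophages and naive eosinophils for Krt5 and Krt6b, and naive eosinophils and naive macrophages for Krt7 and Krt17. Much of this order was part of the choice of the genes and is no separate evidence. The share of all genes separated between tumor macrophages and naive eosinophils was not determined.

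Naive eosinophils against naive macrophages was a comparison that the choice of genes did not use directly, although both naive groups entered the tumor comparisons on which the genes were chosen. Low naive values were part of that choice, so the p-values and counts of the 7 keratins below are not independent of it. In limma on log2 of jointly scaled reads, with p-values adjusted over all 14992 genes, 5 of the 7 keratins were higher in naive eosinophils, where 14.7% of all genes were called higher and 15.5% lower, 30.2% in all. The groups did not overlap for the same 5 keratins, against 20.4% of all genes. Krt5 had 2.97 and 22.5 CPM in naive eosinophils, against 0.377, 0.109, 0, 0.359 and 0.632 CPM in naive macrophages (log2 difference 4.25 ± 0.71, adjusted p = 6.98e-05). Its 2 naive eosinophil libraries differed from each other far more than the macrophage libraries did, yet both lay above them. Krt14 had 1.81 and 4.38 CPM in naive eosinophils, against 0, 0, 0, 0.478 and 0 CPM in naive macrophages (3.54 ± 0.58, limma adjusted p = 5.45e-05). Krt6a had 4.78 and 8.75 CPM in naive eosinophils, against 1.88, 0.109, 0.277, 0.359 and 0 CPM in naive macrophages (3.69 ± 0.68, limma adjusted p = 0.000201). Krt13 had 2.64 and 7.19 CPM in naive eosinophils, against 0, 0.651, 0, 0.239 and 0.632 CPM in naive macrophages (3.44 ± 0.70, limma adjusted p = 0.000565). None of these 3 genes overlapped between the groups either. Krt6b had 0.824 and 3.75 CPM in naive eosinophils, against a single non-zero macrophage library at 0.632 CPM (2.89 ± 0.76, limma adjusted p = 0.00547), and its call was lost with a pseudocount of 4 (adjusted p = 0.0572), with limma-voom (adjusted p = 0.129) and without naive eosinophil library 2 (adjusted p = 0.175).

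Krt17 and Krt7 did not pass the test in naive colon. Krt17 had 0.989 and 6.25 CPM in naive eosinophils, against 1.51, 0.109, 0.277, 0.120 and 3.16 CPM in naive macrophages (1.84 ± 1.01, limma adjusted p = 0.185). Krt7 had 43.7 and 23.4 CPM in naive eosinophils, against 24.5, 9.66, 8.31, 7.65 and 14.5 CPM in naive macrophages (1.43 ± 0.62, limma adjusted p = 0.0861). Both overlapped between the groups, Krt17 through its lower eosinophil library and Krt7 through macrophage library 1. The Krt13 call was lost with limma-voom (adjusted p = 0.0927). These calls rest on 17 to 90 reads per gene in naive eosinophils and 1 to 10 in naive macrophages. The sum of the 7 keratins was 57.7 and 76.3 CPM in naive eosinophils, against 8.86 to 28.2 CPM in naive macrophages, and did not overlap. Its exact permutation p of 0.0952 is the smallest that 2 against 5 libraries can give.

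**Figure D3:**
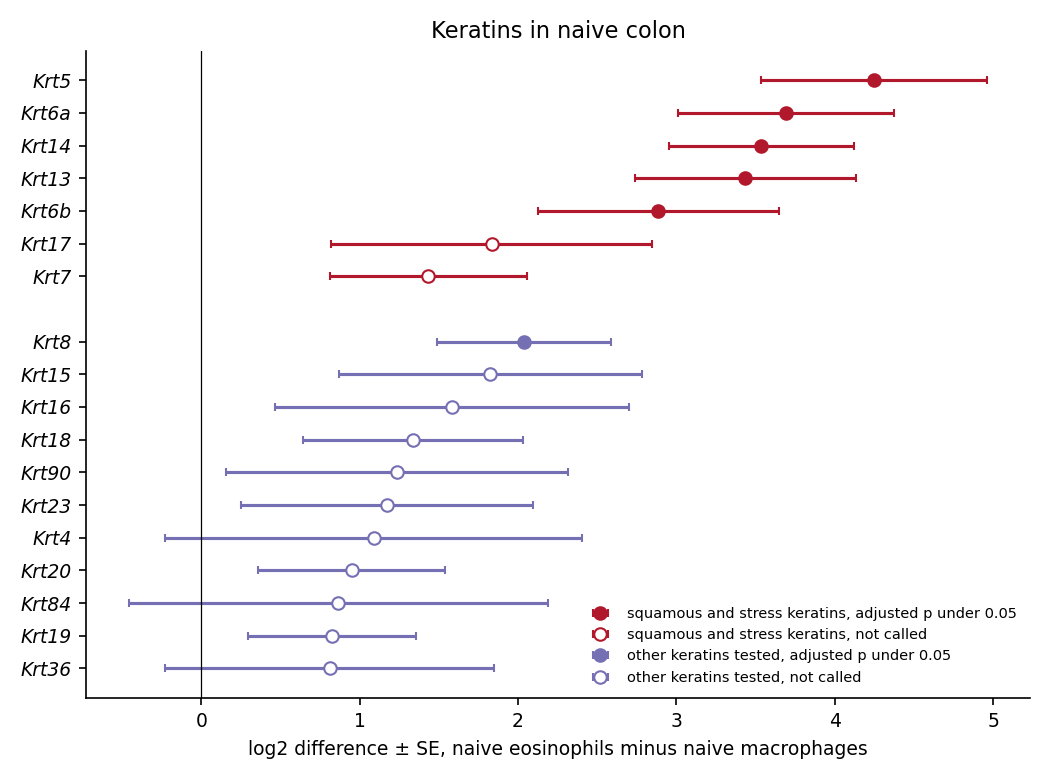
Log2 difference between naive eosinophils and naive macrophages for the 7 squamous and stress keratins and the 11 other keratins tested, with SE (bars) and the call at an adjusted p under 0.05 (filled points). Krt5, Krt6a, Krt14, Krt13 and Krt6b are filled at 2.89 to 4.25, and Krt8, at 2.04, is the one other keratin called by limma.

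The mixture of the 7 keratins differed between libraries. Counted as a share of their summed reads, with no correction for transcript length, Krt7 made up 8.17 to 42.3% in tumor eosinophils and 30.7 and 75.7% in naive eosinophils. Its share was 17.8 to 50.7% in tumor macrophages and 74.2 to 93.8% in naive macrophages. The share of Krt5 was 7.24 to 32.3% in tumor eosinophils and at most 3.90% in naive macrophages. Tumor eosinophil library 5 was unlike the others, with 34.3% Krt13 and 33.2% Krt6a but 0.632% Krt17 and 2.14% Krt14. Tumor eosinophil library 6 had the highest Krt5 (32.3%) and Krt6a (35.4%) shares and the lowest Krt7 share. Among tumor macrophages, library 6 had the highest share of Krt6a (26.2%) and the lowest of Krt7 (17.8%).

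**Figure D4:**
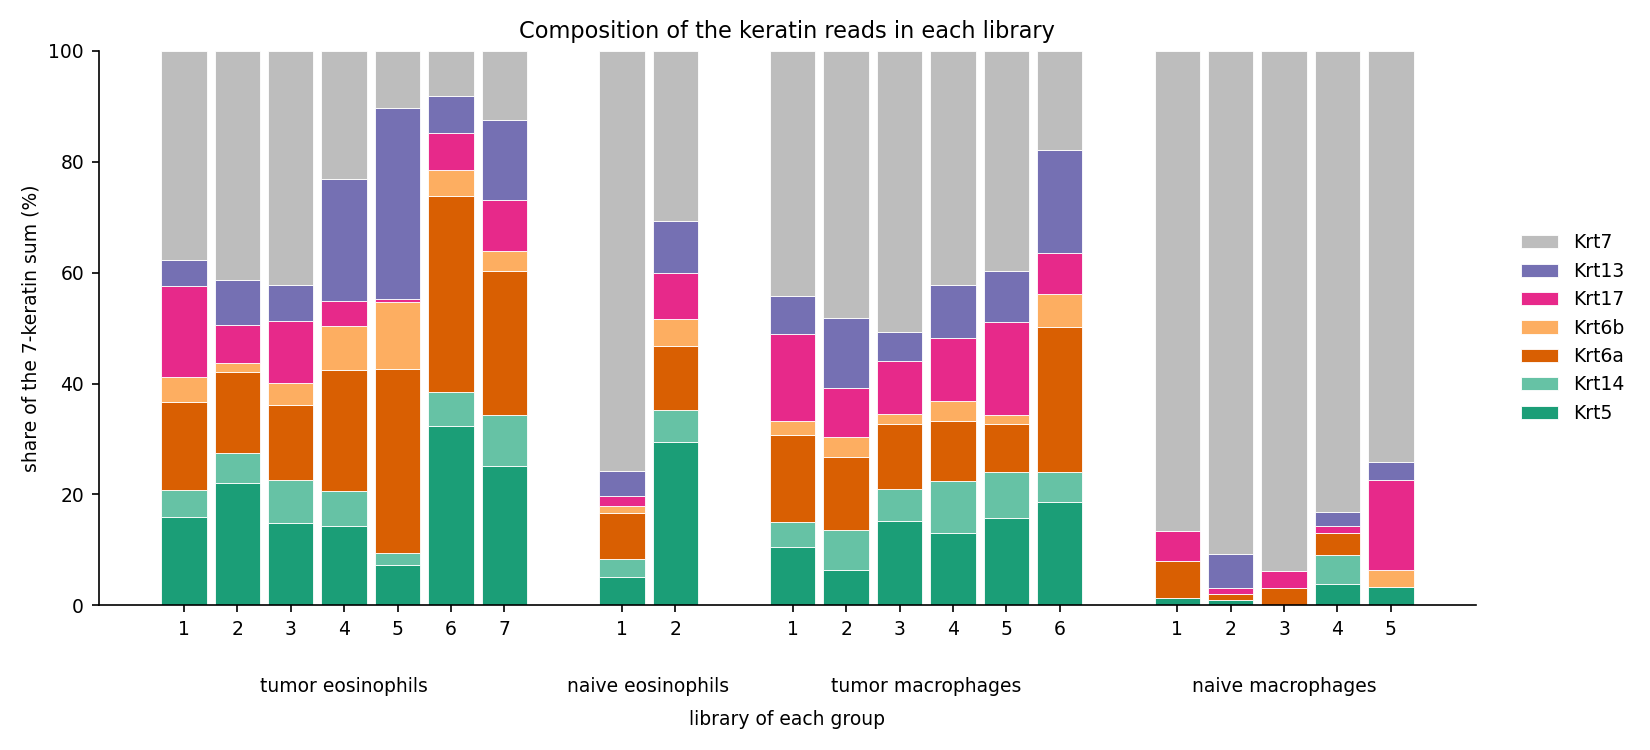
Share of each gene in the summed CPM of the 7 keratins, in percent, for each of the 20 libraries. Krt7 takes 74.2 to 93.8% in naive macrophages and 8.17 to 42.3% in tumor eosinophils, and library 5 of tumor eosinophils shows hardly any Krt17.

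Among the 42 pairs of keratins within the tumor groups no correlation passed adjustment, the lowest adjusted p being 0.303. Krt6b and Krt13 in tumor macrophages had r = 0.939 and rho = 0.829 over n = 6 libraries (exact permutation p = 0.0139 and 0.0583), and r = 0.963 without libraries 5 and 6. The basal pair, Krt5 and Krt14, had r = 0.855 and rho = 0.536 over n = 7 tumor eosinophil libraries (exact permutation p = 0.0310 and 0.236). Without libraries 5 and 6 that r was −0.106, so it rested on those libraries. Krt13 and Krt17 ran opposite to each other in tumor eosinophils, with r = −0.746 and rho = −0.893 (exact permutation p = 0.0345 and 0.0123), and r = −0.471 without libraries 4 and 5.

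Other epithelial transcripts also differed between some of these groups. The pan-epithelial list of 20 genes, none of them among the 7, summed to 1548 to 5310 CPM in tumor eosinophils and 1813 and 1357 CPM in naive eosinophils. It summed to 1031 to 1654 CPM in tumor macrophages and 418 to 1686 CPM in naive macrophages, and each of its genes was found in every group. The log2 sum was higher by 0.96 in tumor than in naive macrophages (exact two-sided permutation p = 0.0346). That call was lost with DESeq2 size factors (exact permutation p = 0.0519), with the intestinal list (exact permutation p = 0.805) and in 8 of 11 omissions of 1 library. The log2 sum was higher by 1.08 in tumor eosinophils than in tumor macrophages (exact permutation p = 0.0035). In eosinophils it was higher by 0.90 in tumor libraries, which did not pass (exact permutation p = 0.167, the smallest possible being 0.0556). Naive eosinophils against naive macrophages did not pass either (exact permutation p = 0.19, the smallest possible being 0.0952). Set against this list, the keratin sum amounted to 10.1 to 47.7% of the epithelial sum in tumor eosinophils, with a median of 19.1%, and to 3.18 and 5.62% in naive eosinophils. In tumor macrophages it amounted to 7.77 to 25.9%, with a median of 10.5%, and in naive macrophages to 1.66 to 2.35%. The part of epithelial RNA in the keratin values was not tested.

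**Figure D5:**
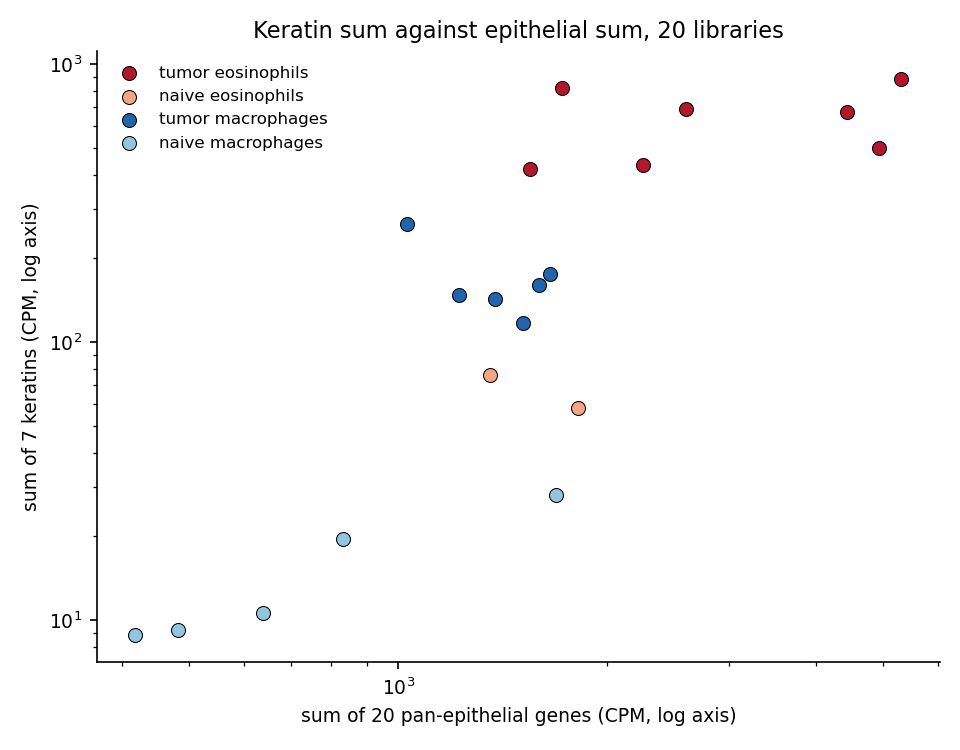
Sum of the 7 keratins against the sum of the 20 pan-epithelial genes in each library, both in CPM on log axes. Tumor libraries lie above naive libraries of the same cell type, with keratin sums of 419 to 886 CPM in tumor eosinophils and 117 to 267 CPM in tumor macrophages, and the tumor eosinophils split into 3 libraries with epithelial sums of 4427 to 5310 CPM and 4 with 1548 to 2594 CPM.

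The epithelial sum of the tumor eosinophils fell at separate levels, 4427 to 5310 CPM in libraries 1 to 3 and 1548 to 2594 CPM in libraries 4 to 7. Krt7 had 1159, 1020 and 803 normalised reads in libraries 1 to 3, and 584, 156, 286 and 209 in libraries 4 to 7. Krt13 had 143, 196 and 123 normalised reads in libraries 1 to 3, and 554, 514, 234 and 243 in libraries 4 to 7. Krt7 was thus higher, and Krt13 lower, in each library with a high epithelial sum than in any with a low one. They are shown because they separated, and the other 5 keratins overlapped between these libraries. Krt5, for example, had 489, 545 and 281 normalised reads in libraries 1 to 3, and 361, 109, 1131 and 423 in libraries 4 to 7. The share of all genes separated in this way was not determined, so the separation is no result about the keratins. Over the 7 libraries, neither Krt7 nor Krt13 had a Pearson correlation with the epithelial sum that passed adjustment (exact permutation, adjusted p = 0.0889 and 0.365). Libraries 1 to 3 also had more recovered reads than libraries 4 to 7 (6157776 to 8520874 against 1978466 to 5928249). Their share of mitochondrial reads was higher too (25.1 to 35.2% against 15.2 to 23.9%). The part of depth and of mitochondrial share in these values was not tested. Each set holds too few libraries for a correlation of its own. In tumor macrophages the keratin sum and the epithelial sum had r = −0.596 and rho = −0.0857 over n = 6 libraries (exact permutation p = 0.261 and 0.919). That r was 0.577 without libraries 1 and 6.

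Of the 47 other keratins, 31 had at least 1 read, 11 were tested in eosinophils and 6 in macrophages. In eosinophils limma called none of the 11, where 4.63% of all genes were called (2.42% higher, 2.21% lower), and edgeR's quasi-likelihood test called none either. With a replicate block 8 of the 11 were called, where 1130 of all 12984 genes were, although the numbers are not known to pair the libraries. Under that block the tumor effect rests on the libraries numbered 1 and 2, the only numbers that both eosinophil groups have. In limma without the block, 3 had an unadjusted p under 0.05. Krt19 and Krt20 passed without naive eosinophil library 1, and Krt4 passed without tumor eosinophil library 6. Krt4, the type II partner of Krt13, had 0.504 to 89.6 CPM in tumor eosinophils, with a median of 16.9, against 0.165 and 0.313 CPM in naive eosinophils (log2 difference 4.83 ± 1.34, limma adjusted p = 0.0602). Its lowest tumor value was 1 read in library 6, where Krt13 had 109 reads. Krt16, a partner of the Krt6 proteins that is named here after its values were seen, averaged 5.37 ± 4.58 CPM in tumor eosinophils (SD, n = 7) and had 1.65 and 0 CPM in naive eosinophils (limma adjusted p = 0.339). In macrophages 4 of the 6 were called, all higher in tumor libraries, where 8.49% of all genes were called higher and 8.61% lower. They were Krt36 (3.49 ± 0.49, limma adjusted p = 0.000178), Krt23 (2.60 ± 0.48, limma adjusted p = 0.00147), Krt18 (2.16 ± 0.43, limma adjusted p = 0.00254) and Krt19 (0.996 ± 0.32, limma adjusted p = 0.0432, lost under several alternatives such as edgeR at 0.158). Krt36 (0.47 to 9.11 normalised reads in naive macrophages) and Krt23 (at most 3.66) passed the filter on low values only through the tumor libraries, so the count of 4 in 6 is no support for a rise of the family. Krt1, the keratin of keratinising skin, had no read in any library. Krt4 had no read in naive macrophages and a mean of 2.63 CPM in tumor macrophages.

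Between the tumor groups, 4 of the 11 other keratins were higher in eosinophils, where 18.9% of all genes were. Krt20 (1.93 ± 0.39, limma adjusted p = 0.000406) and Krt8 (1.68 ± 0.36, limma adjusted p = 0.00076) are simple keratins of the gut lining. The others were Krt19 (1.29 ± 0.35, limma adjusted p = 0.0052) and Krt4 (3.01 ± 0.87, limma adjusted p = 0.00797). In naive colon limma called Krt8 alone of the 11 higher in eosinophils (2.04 ± 0.55, limma adjusted p = 0.00637), where 14.7% of all genes were. edgeR called 3 of the 11 higher in that comparison. The difference between the tumor effects of the cell types was called for none of the 11, where 4.16% of all genes were called. edgeR called none of them either, and none had an unadjusted p under 0.05 in limma.

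Squamous differentiation genes, which encode the cornified envelope and its regulators, were tested for 17 of 35 list members in eosinophils. Limma called 5 of the 17 higher in tumor libraries and none lower, where 2.42% of all genes were called higher. Sprr1a, a cornified envelope precursor, had 272 to 733 normalised reads in tumor eosinophils, against 18.1 and 66.1 in naive eosinophils (log2 difference 3.53 ± 0.46, limma adjusted p = 0.00231). Sprr2d, another such precursor, had 23.2 to 620 normalised reads in tumor eosinophils, against 1.74 and 1.21 in naive eosinophils (6.04 ± 0.96, limma adjusted p = 0.00505). Ly6d (3.17 ± 0.49, limma adjusted p = 0.00475) and the cysteine protease inhibitor Csta1 (3.10 ± 0.66, limma adjusted p = 0.0214) were also higher. Sprr2d and Csta1, the latter with 2 reads in naive eosinophils, passed the filter on low values only through the tumor libraries. The count of 5 in 17 is therefore no support for a rise of the list. Without naive eosinophil library 2 the list had 2 calls. In macrophages 7 of the 35 were tested, of which Sprr2d (4.49 ± 0.51, limma adjusted p = 2.55e-05), Sprr1a (1.45 ± 0.43, limma adjusted p = 0.0288) and Serpinb5 (1.41 ± 0.46, limma adjusted p = 0.0457) were higher in tumor libraries, where 8.49% of all genes were. The transglutaminase Tgm3 was lower (fell by 3.23 ± 0.44 on the log2 scale, limma adjusted p = 0.000126), as were 8.61% of all genes. Sprr2d, with no read in naive macrophages, passed the filter there only through the tumor libraries. Other envelope genes ranged widely in tumor eosinophils. Ivl had 4 reads there and Lor averaged 0.743 CPM. Cnfn had 0.181 to 330 CPM in tumor eosinophils, with a median of 18.0, and a mean of 0.247 CPM in naive eosinophils (5.51 ± 2.14, limma adjusted p = 0.172).

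None of 8 squamous transcription factors tested was called in eosinophils, by limma or by edgeR, and 2 had an unadjusted p under 0.05 in limma. Klf5, a factor of proliferating epithelium, passed when naive library 1 was left out. Trp63, the factor of basal cells, averaged 3.04 ± 3.52 CPM in tumor eosinophils (SD, n = 7) and had 0.165 and 10.003 CPM in naive eosinophils. Of 17 desmosome and hemidesmosome genes tested, limma called only the plakophilin Pkp1 in eosinophils (1.81 ± 0.42, limma adjusted p = 0.0297), where 2.42% of all genes were higher, and that call was lost without either naive library. In macrophages 12 of 17 were higher in tumor libraries and none lower, where 8.49% of all genes were higher and 8.61% lower, with Pkp2 (2.45 ± 0.36, limma adjusted p = 0.000233), Pkp1 (2.87 ± 0.45, limma adjusted p = 0.000416) and the laminin chain Lama3 (2.59 ± 0.42, limma adjusted p = 0.000588) among them. Tumor libraries alone can meet the filter on low values in macrophages, so the count of 12 in 17 is no support for a rise of the list. Of the urothelial markers other than keratins, each of the 5 uroplakins averaged under 1 CPM in tumor eosinophils and tumor macrophages. Psca, the remaining one, was higher in tumor eosinophils than in tumor macrophages (1.85 ± 0.69, limma adjusted p = 0.0333), where 18.9% of all genes were.

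The patterns most like the keratins were sought as the highest Pearson r with the mean log2 level of the 7. Over the 7 tumor eosinophil libraries they were Trim31, Timm44, Dap, Cmtr2, Mrpl47, Plxnb1, Aldoart1 and Tead4, with r between 0.934 and 0.956 among 12977 genes. Over all 20 libraries they were Cxcl5, Clca4b, Ubd, Egln3, Calcb, Lcn2, Khdc1a and Lrg1, with r between 0.950 and 0.971 among 12989 genes. The second set largely follows the 4 group levels: Lcn2, for example, averaged 448 CPM in tumor eosinophils, 19.3 in naive eosinophils, 89.0 in tumor macrophages and 3.11 in naive macrophages.

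Assignment of reads among these genes has limits. The last 500 transcript bases of Krt6a and Krt6b were 69.8% identical and shared no run of 50 bases, although 43.6% of such runs in the whole Krt6a transcript also occur in Krt6b. Krt14 and Krt17 were 65.3% identical in the last 500 bases, where 9.53% of the 50-base runs of Krt14 also occur in Krt17. The sources used here do not say how shared reads were assigned. Genes on the opposite strand overlap Krt5, Krt6a, Krt6b and Krt7 in the annotation, and whether counting used the strand is not given either.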

How the data were processed

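CEL-Seq libraries of sorted eosinophils (7 tumor, 2 naive) and macrophages (6 tumor, 5 naive) were grouped by the labels. Build GRCm38.p5 and the tools HTSeq 0.6.1, DESeq2 1.14.1, Bowtie2 2.2.6, FastQC 0.11.5, TopHat2 2.1.0 and Trim Galore are listed in the submitters' processing notes, without roles. Each cell type has its own table, deposited with a normalised signal, gene read counts divided by a size factor. In each of the 20 libraries 100.0% of the non-zero values (374526 in all) came out as whole reads within 0.1 read, so reads and depth were recovered.

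Genes reaching 10 in at least 2 eosinophil or 5 macrophage libraries were fitted with limma 3.58.1 (eBayes with trend, R 4.3.3) on log2(value + 1), which understates changes of low genes. It called 601 of 12984 genes in eosinophils and 1972 of 11536 in macrophages at a Benjamini-Hochberg adjusted p under 0.05. Because the tables hold normalised values, limma was the main test. edgeR 4.0.16 (quasi-likelihood, on the recovered reads) called 532 and 1949. The tumor libraries alone can meet either filter, so list counts of genes higher in tumors are partly favoured by it. Levels were compared across cell types only after joint TMM scaling of the recovered reads, in 1 model of 4 group means over genes reaching 10 in at least 2 libraries. DESeq2 1.42.0 size factors were an alternative there. Of the calls for a difference in tumor effect (624), 44.9% were higher in eosinophils with TMM and 60.4% with DESeq2 size factors. The fitting script was tested on simulated data.

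The 7 genes, the lists and the tests were chosen with earlier results of these data known. Named were the 7 keratins and, per list and comparison, up to 4 genes past the threshold with the smallest p, and 8 genes of like pattern per set of libraries. Krt1, Krt16, Klf5 and Trp63 in eosinophils, Ivl, Lor, Cnfn and the uroplakins were named after their values were seen. So were the eosinophil markers Prg2, Epx, Ear1, Ear2, Ear6, Cebpe and Alox15 where their mean CPM is given. Alternatives were another pseudocount, voom, no filter, other size factors, a replicate block and leaving out each library. The alternatives for the naive comparison and for tumor eosinophils against tumor macrophages, and leaving out tumor eosinophil libraries 2 and 3, were added after seeing the data. The tables also hold 27 entries with bare numbers for names and 187 entries with repeated names, none of them described here. The results of 1 list gene are not reported here, and the counts of its list leave it out.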

Additional observations from a re-analysis of the deposited data

Results flagged for a closer look

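Of 27 groups of 4 or more libraries examined for the 7 keratins, their sum and the epithelial sum, 4 had a library far from the others, where chance gives about 1 in 20. Tumor eosinophil library 5 was the low value for Krt14 (32.1 normalised reads) and for Krt17 (9.48), its gap to the next library taking 0.744 and 0.619 of the group's range on the log2 scale. In naive macrophages the gap took the whole range (1) for Krt6b, found in library 5 alone with 1 read, and for Krt14, found in library 4 alone with 4 reads.

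The tumor effect differed between the cell types, by the interaction term in limma, for 5 genes of the epithelial, squamous and wound lists and 8 cell type markers, and for none of the 11 other keratins tested. Over all genes the share called was 4.16% (1.87% with the larger and 2.29% with the smaller effect in eosinophils). Tested were 19 pan-epithelial, 18 squamous and 18 wound genes. The markers tested were 10 of eosinophils, 10 of macrophages and 12 of stroma and endothelium. The eosinophil effect minus the macrophage effect, on the log2 scale, was 3.09 for Ly6d (adjusted p = 0.0356), 2.002 for the epithelial transcription factor Ehf (adjusted p = 0.0279), 1.55 for Anxa1 (adjusted p = 0.0332) and 1.39 for the protease inhibitor Spint1 (adjusted p = 0.0234). It was −2.45 for Il1rn (adjusted p = 0.00662). With naive eosinophil library 2 left out, the calls of these 5 genes were lost. Among the markers it was 6.89 for Ear2 (adjusted p = 0.00721), 3.71 for Ear6 (adjusted p = 0.0339), 2.72 for Cx3cr1 (adjusted p = 0.00605), 2.19 for C1qb (adjusted p = 0.00811), 1.91 for C1qc (adjusted p = 0.0058), 1.46 for C1qa (adjusted p = 0.0255) and −1.34 for Pecam1 (adjusted p = 0.0402). The macrophage marker Adgre1 was also called, with a lower effect in eosinophils (adjusted p = 0.0279). Marker calls, among them those of Cx3cr1, C1qa, C1qb, C1qc, Adgre1 and Pecam1, were likewise lost with naive eosinophil library 2 left out. The Ear2 value rests on 1 read in naive eosinophils, against 501 reads in naive macrophages.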

How the results depend on the processing

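The 2 naive eosinophil libraries limit most comparisons. Leaving out naive eosinophil library 2 or 1 took the calls between tumor and naive eosinophils to 93 or 953 and those for the difference in tumor effect to 168 or 1778, the ends of their leave-one-out ranges. The other ranges were 1514 to 1937 calls in macrophages, 5723 to 6742 between the tumor groups, 3061 to 4880 between the naive groups and 4 to 6 of the 7 keratins in naive colon. The median keratin difference ranged from 2.78 to 4.77 (eosinophils), 4.85 to 5.27 (macrophages) and 1.91 to 2.44 (tumor eosinophils against tumor macrophages). The epithelial sum differed by 0.69 to 1.11 in eosinophils and 0.77 to 1.27 in macrophages, where 8 of the 11 omissions ended the call. The keratin to epithelium r ranged from 0.0627 to 0.673 in tumor eosinophils (0.339 with all) and from −0.772 to 0.326 in tumor macrophages, positive only without library 6.

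With a replicate block 1130 genes were called in eosinophils and 1233 in macrophages. In eosinophils the block leaves the tumor effect to the libraries numbered 1 and 2, the only numbers that both groups have. Nothing in the labels says that replicate numbers pair libraries. After group means were subtracted, same-numbered libraries correlated at 0.124 and 0.128 in eosinophils, where both naive libraries matched their own number best (2 pairs). In macrophages they correlated at −0.31 to 0.0553, and none matched its own number best. The deviations of only 2 naive eosinophil libraries from their mean mirror each other, so their 2 matches are not independent and cannot show pairing. The naive keratin count stayed at 5 under the block, and 8 of the 11 other keratins were called in eosinophils. The difference in tumor effect had 360 calls with limma-voom and 405 without a filter, and voom called 3 of the 7 keratins in naive colon. The epithelial sum in macrophages lost its call with DESeq2 size factors (0.87, exact permutation p = 0.0519) and with the intestinal list (0.14, exact permutation p = 0.805). The median keratin difference in macrophages was 3.53 with a pseudocount of 4 and 5.88 in edgeR, which follows from the few naive reads. The causes of the other shifts were not tested. Among 143 named calls of single genes, 37 were lost without naive eosinophil library 2, 19 with limma-voom and 11 with edgeR.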

Other observations

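Genes of wounded and regenerating epithelium, a list that shares no member with the 7 keratins, were higher in tumors of both cell types for some members. In eosinophils limma called 4 of 18 tested higher in tumor libraries and none lower, where 2.42% of all genes were called higher: Plet1 (2.60 ± 0.44, adjusted p = 0.00647), Anxa8 (3.05 ± 0.56, adjusted p = 0.0114), the surface protein Ly6a (2.24 ± 0.44, adjusted p = 0.0144) and the receptor Tnfrsf12a (2.33 ± 0.57, adjusted p = 0.0374). Without naive eosinophil library 2, 1 of the 18 was called. In macrophages 10 of 16 were higher in tumor libraries and none lower, where 8.49% of all genes were called higher. Among those called by limma were the claudin Cldn4 (3.23 ± 0.29, adjusted p = 3.81e-06), Il1rn (2.56 ± 0.26, adjusted p = 8.31e-06), Anxa8 (4.23 ± 0.43, adjusted p = 9.14e-06) and Clu (2.15 ± 0.24, adjusted p = 2.52e-05). Tumor libraries alone can meet the filter on low values in either cell type. The counts of 4 in 18 and 10 in 16 are therefore no support for a rise of the list. The part of the eosinophils' and macrophages' own RNA in these values was not tested.

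Transcripts of differentiated colon epithelium went the other way for a few members. In eosinophils limma called 2 of 20 lower in tumor libraries and none higher, where 2.21% of all genes were called lower, the anion exchanger Slc26a3 (fell by 3.17 ± 0.59 on the log2 scale, adjusted p = 0.0116) and the carbonic anhydrase Car1 (fell by 2.40 ± 0.50, adjusted p = 0.018), and both calls were lost without either naive library. Without naive library 2, Guca2a alone was called lower (fell by 2.81 ± 0.54, adjusted p = 0.0442), and without naive library 1 none was lower and 2 were higher. In macrophages 4 of 18 were lower and 2 higher, where 8.61% and 8.49% of all genes were, the lower ones including Guca2a (fell by 3.04 ± 0.47, adjusted p = 0.000381), Slc26a3 (fell by 3.92 ± 0.71, adjusted p = 0.00133) and Car1 (fell by 2.61 ± 0.51, adjusted p = 0.00221).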
